A study of Mus musculus with 8 samples.

Results

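The genes described here are 44 genes of DNA replication in mouse skin. They cover origin licensing, activation of the replicative helicase, the DNA polymerases, the sliding clamp and its loader, single-strand binding, Okazaki fragment joining, chromatin behind the fork, nucleotide supply and entry into S phase. Their probes were found by gene name: every array probe whose RefSeq accession maps to 1 of the 44 gene symbols was taken. All 44 were on the array, through 50 of its 26762 named probes, among 20284 named genes. Of the 17740 genes that could be tested, 43 were members of this set, and Gins3 is given apart because outlier flags removed most of its spots.

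The RNA came from whole skin of mice and was hybridised to 8 Agilent arrays with a single dye, 4 for skin labelled Control and 4 for skin labelled DTG. The series title names the overexpression of Musashi1, whose gene is Msi1 and which binds RNA, but the labels do not spell out DTG. They give both groups as male, and they state no strain, age, treatment, promoter or allele for either group. It is not stated whether the 4 skins of a group came from separate animals, so the p-values below capture the spread between samples alone, and part of that spread may be technical.

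DNA is copied once per cell cycle. In G1 the origin recognition complex, Cdc6 and Cdt1 load the Mcm helicase onto origins. At the start of S phase cyclin E and its kinase help to switch that helicase on, and polymerases then extend DNA behind it, with a ring-shaped clamp holding them in place. Many of the genes are switched on by E2F transcription factors as cells leave G1, and in skin the cells that copy DNA lie mostly in the basal epidermis and the hair matrix.

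A level is the log2 signal minus the array's own 75th percentile, and a change is the DTG mean minus the Control mean on that scale, with the standard error (SE) of a limma fit over all 17740 genes. A gene was called when its Benjamini-Hochberg adjusted p over all those genes was under 0.05. Between 79.5% and 85.1% of spots were well above background on Control arrays and between 68.8% and 71.6% on DTG arrays. All 8 arrays lay on 1 slide, Control arrays in row 1 and DTG arrays in row 2, and effects of the row cannot be told apart from those of the group. Xist RNA, made by an inactive X chromosome, measured 0.076 to 0.73 on 5 arrays and -8.56 to -6.89 on the other 3, which are Control 1, Control 3 and DTG 2. The high level on the 5 goes against their male label, and the results are therefore also given by Xist class. A probe of Msi1 measured -5.92 to -1.48 on the Control arrays and 3.85 to 4.16 on the 3 DTG arrays where its spot was not an outlier, and another Msi1 probe averaged -3.11 in Control and -3.13 in DTG.

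In DTG skin 20 of the 43 members tested fell, 0 rose and 23 were not called. Over all genes 21.3% were called lower and 11.2% higher, against 46.5% of the members lower. The limma fit gave 1 member, Rpa2, a higher level at an unadjusted p under 0.05. The cyclin gene Ccne1, the nucleotide salvage gene Tk1, the ligase gene Lig1 and the polymerase gene Pole fell by 1.32, 1.24, 1.14 and 1.07 on the log2 scale. The clamp gene Pcna and most subunits of the Mcm helicase were not called. In whole skin, fewer replicating cells and less RNA per cell cannot be told apart.

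The median change of the 43 members was -0.32, against -0.15 over all genes tested. Set against the Control mean of each gene and the median of all genes, the median member lay at -0.086 to 0.13 on the 4 Control arrays and at -0.31 to -0.11 on the 4 DTG arrays. The groups did not overlap on that measure. Single genes gave a similar count: for 23 members every DTG array lay below every Control array (23.2% of all genes), and for 1, Rpa2, every DTG array lay above (11.4% of all genes). The signal of 42 of the 43 was well above background on all 8 arrays. The exception is Rpa1, with 2 Control spots marked as outliers; it is among the 23, and its groups overlap when those spots are kept.

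The direction depends on how arrays are scaled to each other. The median of all genes moved from -0.15 on the scale used to 0.33 when arrays were scaled on the E1A spike-in spots, which detect RNA added as a standard, and the share of lower calls among all calls went from 65.6% to 7.09% (41.6% without scaling). Relative to the 75th percentile, the spike-in signal ran from 0.19 to 0.84 on Control arrays and from -0.00047 to 0.13 on DTG arrays. That spread among Control arrays enters every value on the spike-in scale. Of the 43 members, 35 were below 0 on the scale used, 35 with median scaling, 33 with quantile scaling, 30 without scaling and 17 on the spike-in scale. Relative to the median gene, the median member was at -0.17 with quantile scaling; the other scales move all genes of an array by 1 number and leave this value nearly fixed at -0.17. Changes below are on the 75th percentile scale, and spike-in values of some members are given beside each role. The members left out there were above 0 on the spike-in scale and not called. The highest of them were Orc1, Cdc45, Pola2 and Rfc3, at 1.04, 0.79, 0.63 and 0.61.

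**Figure D1:**
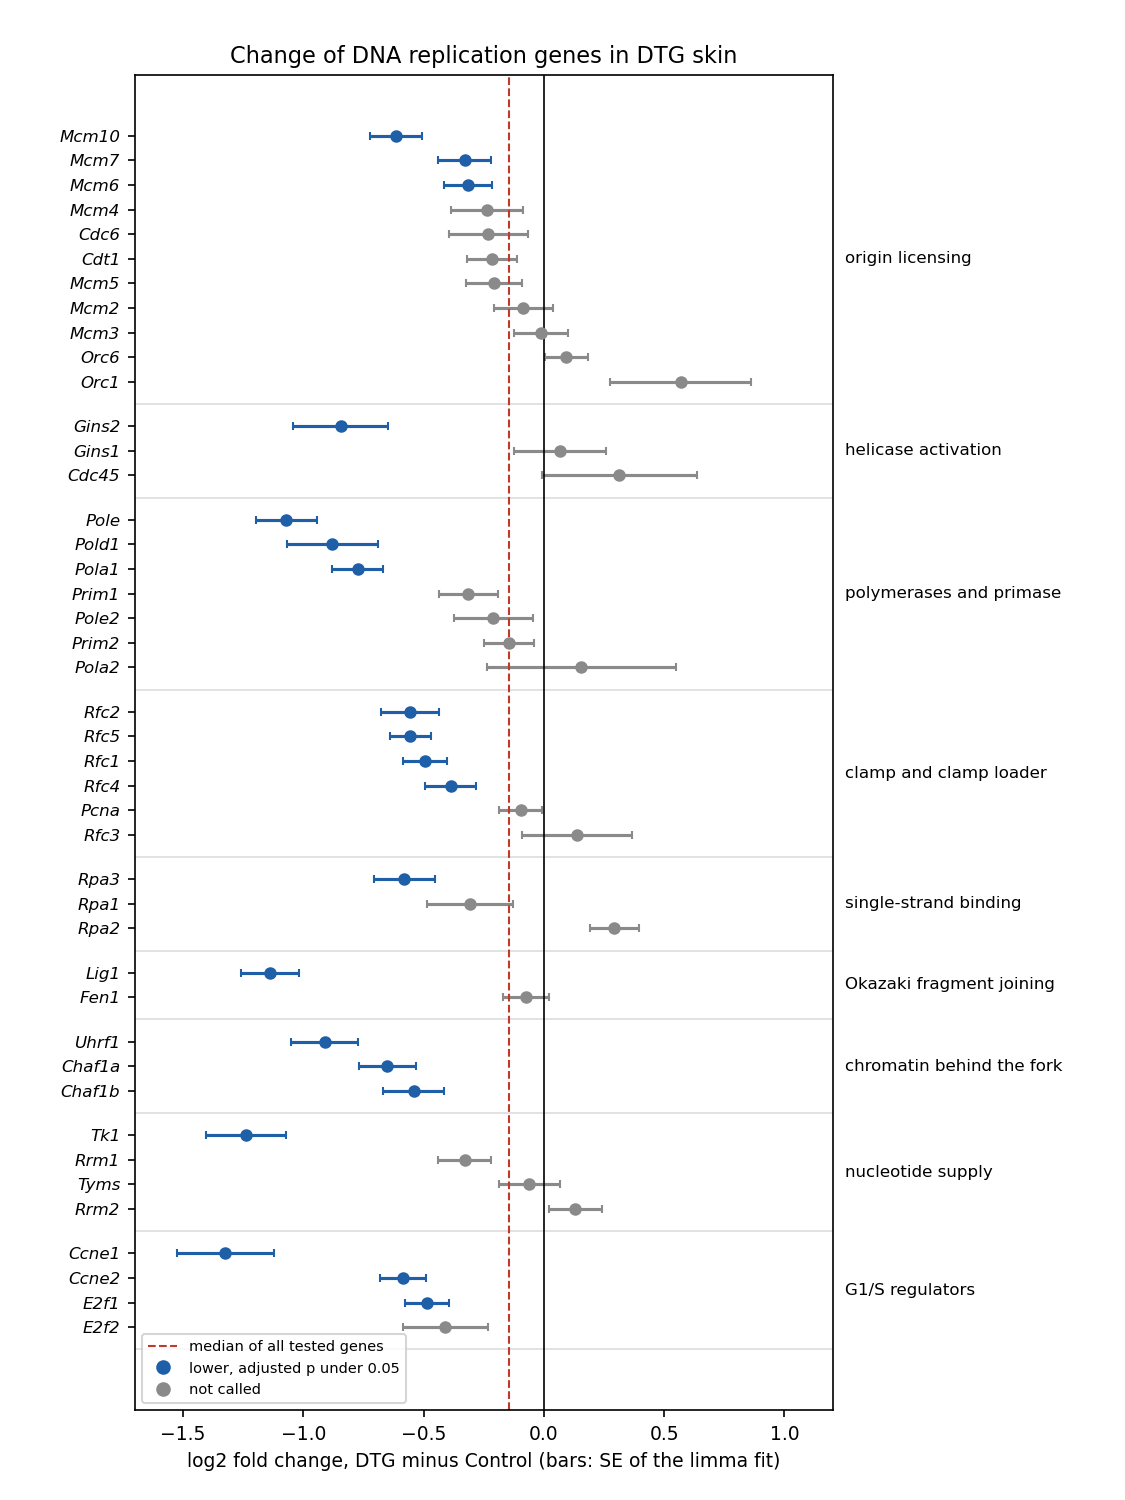
Log2 fold change, DTG minus Control, of the 43 members tested, grouped by role; points are limma estimates and bars are SE. The 20 members called lower are blue, the 23 not called are grey, and the dashed line is the median of all genes tested at -0.15. The largest falls are those of Ccne1, Tk1, Lig1 and Pole, and no member was called higher.

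Promoter windows from RefSeq (assembly GRCm38.p6, 250 bases before to 50 after the annotated start of a gene) were matched to 37 of the 44 members. Ccne2, Gins1, Gins2, Mcm4, Pole, Prim2 and Rfc2 had no entry. A core E2F-like motif, TTTNNCGC, was found on either strand in at least 1 window of 16 of the 37 genes (43.2%) and of 5.93% of all 27025 genes with windows. Among members called lower 6 of 16 had it, and among members tested and not called 9 of 20. The GC box GGGCGG stood in 29 of 37 (78.4%) against 38.2% of all genes, CCAAT in 23 of 37 (62.2%) against 41.1%, and the letters TTTGAA of a CHR-like element in 5 of 37 (13.5%) against 20.2%. Split by call in the same order, GGGCGG stood in 15 of 16 and 13 of 20, and CCAAT in 8 of 16 and 14 of 20. For TTTGAA the counts were 0 of 16 and 4 of 20. Differences between these splits were not tested. Matches of TTTNNCGC on opposite strands can overlap, as in Mcm5 and Mcm6. A match is a description of the letters and says nothing of binding.

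Promoters are printed for Ccne1, the member with the largest fall, for Lig1, the member with the largest fall among those that hold a TTTNNCGC match, and for Mcm3, a helicase subunit with a difference near 0 that was picked for contrast after its values were seen. Each sequence runs 5′ to 3′ on the strand of its gene, in GRCm38.p6. Capitals mark matches on either strand, to TTTNNCGC in Lig1 (chr7:13278576-13278875, plus strand) and Mcm3 (chr1:20820263-20820562, minus strand) and to GGGCGG in Ccne1 (chr7:38107441-38107740, minus strand).
Lig1: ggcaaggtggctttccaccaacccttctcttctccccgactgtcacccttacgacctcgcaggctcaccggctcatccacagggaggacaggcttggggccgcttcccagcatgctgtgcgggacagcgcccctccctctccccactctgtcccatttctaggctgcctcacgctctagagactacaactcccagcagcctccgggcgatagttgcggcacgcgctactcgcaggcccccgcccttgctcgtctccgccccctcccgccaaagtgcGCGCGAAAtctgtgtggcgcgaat
Mcm3: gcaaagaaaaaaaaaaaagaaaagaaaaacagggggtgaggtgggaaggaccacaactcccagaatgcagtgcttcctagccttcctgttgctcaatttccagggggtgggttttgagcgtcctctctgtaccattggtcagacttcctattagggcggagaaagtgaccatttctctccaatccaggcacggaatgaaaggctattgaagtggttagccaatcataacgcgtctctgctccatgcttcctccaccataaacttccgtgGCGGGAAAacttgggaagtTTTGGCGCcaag
Ccne1: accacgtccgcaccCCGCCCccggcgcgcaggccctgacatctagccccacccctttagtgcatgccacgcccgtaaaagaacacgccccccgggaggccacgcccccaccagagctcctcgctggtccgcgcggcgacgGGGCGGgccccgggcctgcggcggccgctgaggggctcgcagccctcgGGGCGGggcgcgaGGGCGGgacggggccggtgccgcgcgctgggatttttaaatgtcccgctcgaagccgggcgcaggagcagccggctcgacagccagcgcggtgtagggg
Lig1 has 3 windows, at different annotated starts; the 1 printed was picked because it holds a match to TTTNNCGC, beginning 26 bases after its start, and the other two hold none. That of Mcm3 holds 2, which begin 19 and 38 bases after it. That of Ccne1 holds none of this motif and 4 matches to GGGCGG.

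Among the 11 genes listed under origin licensing, with Mcm10 counted among them, 3 fell and 8 were not called, a share near the 21.3% of all genes called lower. Their median change was -0.22, against -0.15 over all genes. Mcm10, which joins the helicase to the first polymerase at an origin, measured -0.42, -0.44, -0.36 and -0.56 on Control arrays 1 to 4 and -1.08, -1.21, -0.80 and -1.15 on DTG arrays 1 to 4. It fell by 0.61 (SE 0.11, adjusted p = 0.00451), and all 4 DTG arrays lay below all 4 Control arrays. Mcm6 and Mcm7 are subunits of the helicase ring. Levels of Mcm6 were 2.38, 2.13, 2.29 and 2.41 on Control arrays 1 to 4 and 2.07, 1.89, 1.89 and 2.08 on DTG arrays 1 to 4. They fell by 0.32 (SE 0.10, adjusted p = 0.0408), with a narrow gap between the groups. For Mcm7 the arrays read 2.26, 2.15, 2.34 and 2.03 on Control arrays 1 to 4 and 1.92, 1.66, 1.98 and 1.89 on DTG arrays 1 to 4, a fall of 0.33 (SE 0.11, adjusted p = 0.047), again without overlap. Neither call was firm. That of Mcm6 was kept only without Control 2 (-0.38) and otherwise lost without any 1 array (-0.35 to -0.28, adjusted p = 0.0554 to 0.102), and that of Mcm7 only without Control 4 (-0.39; otherwise -0.37 to -0.26, adjusted p = 0.0533 to 0.121). On the spike-in scale Mcm10, Mcm6 and Mcm7 were at -0.14, 0.16 and 0.14, none called.

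The other subunits of the helicase ring were not called: Mcm2, Mcm3, Mcm4 and Mcm5 differed between the groups by -0.086, -0.011, -0.24 and -0.21 (SE 0.11 to 0.15). The arrays for Mcm3, printed above with its promoter, read 1.84, 1.47, 1.85 and 1.62 on Control arrays 1 to 4 and 1.69, 1.59, 1.81 and 1.63 on DTG arrays 1 to 4, and the groups overlapped throughout. Cdt1, the helicase loader that is active in G1, measured 0.97, 0.89, 1.24 and 0.88 on Control arrays 1 to 4 and 0.74, 0.70, 0.80 and 0.88 on DTG arrays 1 to 4. The groups just missed overlapping, and the difference of -0.22 (SE 0.11, adjusted p = 0.148) was not called. Its partner Cdc6 read -0.23 and -0.19 on its 2 probes, neither called. Orc1, the largest subunit of the origin recognition complex, lay at -4.81, -4.36, -3.35 and -3.66 on Control arrays 1 to 4 and -3.38, -3.41, -3.70 and -3.41 on DTG arrays 1 to 4. Control 1 and Control 2 were the lowest arrays and Control 3 the highest, so the difference of 0.57 (SE 0.29, adjusted p = 0.165) lay within the spread; it was 0.32 without Control 1. Orc6, another subunit, differed by 0.093 (SE 0.089). Mcm3 (0.46) and Orc6 (0.57) were called higher on the spike-in scale.

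Cdc45 and the GINS proteins turn the loaded Mcm ring into a working helicase. Gins2 measured -1.21, -0.56, -0.26 and -0.72 on Control arrays 1 to 4 and -1.30, -1.70, -1.47 and -1.66 on DTG arrays 1 to 4. It fell by 0.84 (SE 0.20, adjusted p = 0.0135), although Control 1 was close to the DTG arrays. Gins1 lay at -0.65, -1.08, -0.61 and -1.07 on Control arrays 1 to 4 and -1.28, -0.71, -0.59 and -0.55 on DTG arrays 1 to 4, with overlapping groups and a difference of 0.066 (SE 0.19). Levels of Cdc45 were -4.33, -4.47, -4.41 and -4.28 on Control arrays 1 to 4 and -4.42, -4.23, -2.97 and -4.62 on DTG arrays 1 to 4. DTG 3 alone stood high, and the difference of 0.31 (SE 0.32, adjusted p = 0.476) became -0.049 without it. Gins3 was not tested, because 3 Control and 2 DTG spots were marked as outliers. With those spots kept it read 4.17, 3.89, 4.11 and 3.77 on Control arrays 1 to 4 and 3.73, 3.53, 3.50 and 3.64 on DTG arrays 1 to 4, all DTG arrays lower, and it was called lower, at -0.38 (SE 0.12, adjusted p = 0.0353). With spike-in scaling Gins2 was at -0.37, not called, and Gins1 at 0.54, called higher.

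The catalytic subunit of each of the 3 replicative polymerases fell, while the other subunits among the members and primase were not called. Of their subunits outside the members, Pold2 and Pold3 of polymerase delta also fell, by 0.45 (SE 0.12) and 0.40 (SE 0.10). These 2 are named after their values were seen. Pold4, Pole3 and Pole4, also outside the members, were not called, at -0.014, -0.35 and -0.021. The call of Pold2 was lost without Control 3 or DTG 2 (-0.40 and -0.42), and neither Pold2 nor Pold3 was called on the spike-in scale. Pole encodes the catalytic subunit of polymerase epsilon, which copies the leading strand, and measured -0.48, -0.37, -0.14 and -0.59 on Control arrays 1 to 4 and -1.65, -1.49, -1.26 and -1.47 on DTG arrays 1 to 4. It fell by 1.07 (SE 0.13, adjusted p = 0.000756), a 2.1-fold change, with a wide gap between the groups. Pola1, of the polymerase that starts each new strand, measured 0.54, 0.34, 0.43 and 0.53 on Control arrays 1 to 4 and -0.32, -0.54, -0.22 and -0.17 on DTG arrays 1 to 4. It fell by 0.77 (SE 0.11, adjusted p = 0.00147), again without overlap. Pold1, of polymerase delta, which copies the lagging strand, lay at 0.49, 0.78, 0.84 and 0.49 on Control arrays 1 to 4 and -0.61, -0.41, 0.26 and -0.16 on DTG arrays 1 to 4. It fell by 0.88 (SE 0.19, adjusted p = 0.0099); DTG 3 was the DTG array closest to Control. On the spike-in scale Pole was still called, at -0.60 (adjusted p = 0.0204), and Pola1 and Pold1 were not, at -0.30 and -0.41.

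Prim1, the catalytic subunit of the primase that lays down RNA primers, measured 1.27, 0.81, 1.26 and 1.06 on Control arrays 1 to 4 and 0.79, 0.74, 0.69 and 0.93 on DTG arrays 1 to 4. Only Control 2 reached down to the DTG arrays; the difference of -0.31 (SE 0.12, adjusted p = 0.0826) was not called with it and was called without it (-0.41, adjusted p = 0.0284). Its partner Prim2 read 0.24, 0.34, 0.44 and 0.12 on Control arrays 1 to 4 and 0.064, 0.10, 0.31 and 0.085 on DTG arrays 1 to 4, a difference of -0.15 (SE 0.10) with overlapping groups. Pole2, an accessory subunit of polymerase epsilon, differed by -0.21 (SE 0.17). Pola2, an accessory subunit of polymerase alpha, differed by 0.16 (SE 0.39) and by -0.22 without Control 1, its lowest array.

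Of the sliding clamp and its 5-subunit loader, 4 loader subunits fell and the clamp and Rfc3 were not called (21.3% of all genes were called lower). Rfc5 measured 1.16, 1.07, 1.17 and 1.11 on Control arrays 1 to 4 and 0.46, 0.52, 0.63 and 0.69 on DTG arrays 1 to 4. It fell by 0.56 (SE 0.087, adjusted p = 0.00253), and the Control arrays lay close together above every DTG array. Rfc1, the large subunit, measured 1.73, 1.47, 1.55 and 1.58 on Control arrays 1 to 4 and 1.09, 0.99, 1.12 and 1.16 on DTG arrays 1 to 4, and it too fell without overlap, by 0.49 (SE 0.090, adjusted p = 0.00501). Rfc2 measured 0.52, 0.86, 0.91 and 0.71 on Control arrays 1 to 4 and 0.31, -0.012, 0.23 and 0.24 on DTG arrays 1 to 4, a fall of 0.56 (SE 0.12, adjusted p = 0.00965) in which Control 1 and DTG 1 were the closest arrays. For Rfc4 the brighter of 2 probes read 0.88, 0.67, 0.93 and 0.78 on Control arrays 1 to 4 and 0.27, 0.44, 0.37 and 0.63 on DTG arrays 1 to 4. It fell by 0.39 (SE 0.11, adjusted p = 0.0259), but the dimmer probe read 0.044 (SE 0.25) and the average of both was not called. The Rfc4 call was also lost without Control 1, Control 3, DTG 1, DTG 2 or DTG 3 (-0.39 to -0.34, adjusted p = 0.0516 to 0.0707).

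Pcna, the clamp itself, measured 3.02, 2.80, 3.0 and 2.92 on Control arrays 1 to 4 and 2.87, 2.72, 2.90 and 2.87 on DTG arrays 1 to 4. The groups overlapped and the difference was -0.10 (SE 0.089, adjusted p = 0.432). Rfc3 differed by 0.14 (SE 0.23) and by -0.080 without Control 1. On the spike-in scale Rfc5, Rfc1, Rfc2 and Rfc4 were at -0.082, -0.020, -0.084 and 0.086 and Pcna at 0.38, none called. Each array was also scaled on its own Pcna signal, which tests every other gene against the clamp gene. This too shifts all genes of an array by 1 number. It was added after the values were seen, and Pcna is itself a member that was not called. The values relative to Pcna are therefore a description and no independent support for the calls. Relative to Pcna 17 of 42 members were lower (12.5% of all genes) and 1, Rpa2, was higher (12.9% of all genes). Rfc5, Rfc1 and Rfc2 were among the 17, at -0.46, -0.40 and -0.46 (adjusted p = 0.00696, 0.00828 and 0.0314), and Mcm6, Mcm7 and Rfc4 were not.

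Of the 3 subunits of replication protein A, which coats single-stranded DNA at the fork, 1 fell and the others were not called. Over all genes 21.3% were called lower. Rpa3 measured 0.61, 0.63, 0.73 and 0.68 on Control arrays 1 to 4 and -0.062, -0.14, 0.41 and 0.13 on DTG arrays 1 to 4. It fell by 0.58 (SE 0.13, adjusted p = 0.0103), with all DTG arrays below all Control arrays. Rpa2 measured 0.56, 0.65, 0.86 and 0.85 on Control arrays 1 to 4 and 1.11, 0.92, 1.05 and 1.01 on DTG arrays 1 to 4, and here all DTG arrays lay above all Control arrays. Its difference of 0.29 (SE 0.10, adjusted p = 0.0544) just missed the threshold; it was called higher with quantile scaling (0.31), without scaling (0.42), relative to Pcna (0.39) and on the spike-in scale (0.77). Rpa3 was called lower relative to Pcna, at -0.49, and on the spike-in scale was at -0.11, not called. Rpa1, the large subunit, read 1.94 and 1.81 on Control 1 and 4, the only Control arrays left after outlier flags, and 1.51, 1.25, 1.79 and 1.74 on DTG arrays 1 to 4. These groups did not overlap, but with the marked spots kept Control 2 was at 1.76 and Control 3 at 1.88, and Control 2 lay below DTG 3. The difference of -0.31 (SE 0.18, adjusted p = 0.229) was not called.

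Of the pair that finishes Okazaki fragments 1 fell (21.3% of all genes were called lower). Lig1, the ligase that seals the fragments and 1 of the genes whose promoter is printed above, measured 1.29, 1.39, 1.52 and 1.30 on Control arrays 1 to 4 and 0.33, -0.053, 0.41 and 0.26 on DTG arrays 1 to 4. It fell by 1.14 (SE 0.12, adjusted p = 0.000449), a 2.2-fold change with the widest gap between groups of any member, and was still called on the spike-in scale, at -0.66 (adjusted p = 0.0173). Fen1, the nuclease that trims the flap before ligation, measured 2.29, 2.08, 2.25 and 2.16 on Control arrays 1 to 4 and 2.29, 2.02, 2.10 and 2.08 on DTG arrays 1 to 4. These groups overlapped, and the difference was -0.075 (SE 0.10; 0.40 on the spike-in scale, not called).

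All 3 genes that restore chromatin behind the fork fell (21.3% of all genes were called lower). Uhrf1, which reads newly copied methylated DNA for the maintenance methyltransferase, measured 2.16, 1.90, 2.20 and 1.82 on Control arrays 1 to 4 and 1.09, 0.83, 1.36 and 1.13 on DTG arrays 1 to 4. It fell by 0.91 (SE 0.14, adjusted p = 0.00239), and no DTG array reached the Control arrays. Chaf1a and Chaf1b encode subunits of the factor that loads histones onto new DNA. Chaf1a measured -0.37, -0.40, -0.064 and -0.065 on Control arrays 1 to 4 and -0.78, -1.03, -0.75 and -0.94 on DTG arrays 1 to 4, and it fell without overlap by 0.65 (SE 0.12, adjusted p = 0.0051). Chaf1b measured 0.88, 0.68, 1.07 and 0.62 on Control arrays 1 to 4 and 0.13, 0.18, 0.45 and 0.33 on DTG arrays 1 to 4, a fall of 0.54 (SE 0.13, adjusted p = 0.0139), and its dimmer probe fell by 0.71 (SE 0.13). Uhrf1 was called lower with spike-in scaling too, at -0.44, and Chaf1a and Chaf1b, at -0.18 and -0.068, were not called.

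**Figure D2:**
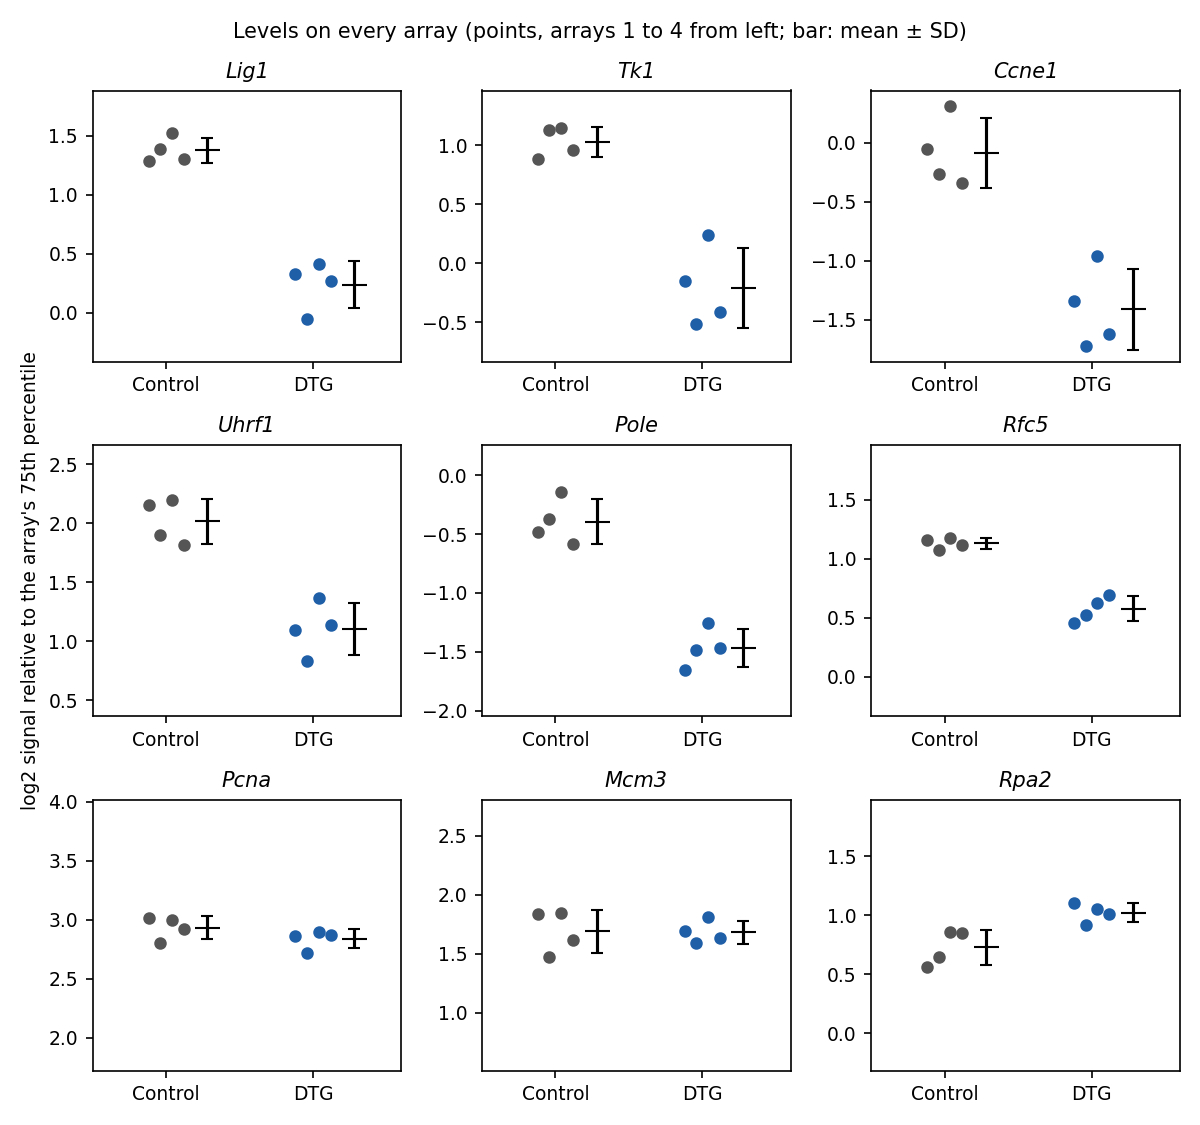
Level (vertical axis, log2 signal after subtracting the 75th percentile of the array) on each of the 4 Control (grey) and 4 DTG (blue) arrays for 9 members; bars are mean ± SD. In the upper 2 rows all DTG points lie below all Control points, in the lowest row Pcna and Mcm3 overlap, and Rpa2 lies higher on every DTG array.

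Of the 4 nucleotide supply genes 1 fell, or 25%, which is near the 21.3% of all genes called lower. Tk1, which phosphorylates thymidine in the salvage route, measured 0.88, 1.13, 1.14 and 0.96 on Control arrays 1 to 4 and -0.16, -0.52, 0.24 and -0.41 on DTG arrays 1 to 4. It fell by 1.24 (SE 0.17, adjusted p = 0.00135), a 2.36-fold change, and DTG 3 was the highest of the 4 DTG arrays. Rrm1, the large subunit of ribonucleotide reductase, measured 1.72, 1.62, 1.89 and 1.64 on Control arrays 1 to 4 and 1.25, 1.28, 1.60 and 1.43 on DTG arrays 1 to 4. The groups did not overlap, yet the difference of -0.33 (SE 0.11, adjusted p = 0.0501) fell just short of a call; without DTG 3 it was called (-0.40, adjusted p = 0.0322). The small subunit gene Rrm2 measured 1.86, 1.49, 1.75 and 1.68 on Control arrays 1 to 4 and 1.74, 1.71, 1.92 and 1.94 on DTG arrays 1 to 4, with overlapping groups and a difference of 0.13 (SE 0.11). Tyms, which makes thymidylate in the other route, lay at -3.26, -3.06, -2.72 and -2.90 on Control arrays 1 to 4 and -2.99, -2.96, -3.19 and -3.05 on DTG arrays 1 to 4. Its difference was -0.062 (SE 0.13), and again the groups overlapped. On the spike-in scale Tk1 was called lower at -0.77 and Rrm2 called higher at 0.60, while Rrm1 (0.14) and Tyms (0.41) were not called.

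Both cyclin E genes and E2f1 fell. Ccne1, a cyclin that drives the kinase Cdk2 into S phase and the third gene with a printed promoter, measured -0.052, -0.27, 0.31 and -0.34 on Control arrays 1 to 4 and -1.34, -1.73, -0.96 and -1.62 on DTG arrays 1 to 4. It fell by 1.32 (SE 0.20, adjusted p = 0.00232), a 2.5-fold change and the largest fall among the members. Ccne2 measured -2.46, -2.59, -2.32 and -2.61 on Control arrays 1 to 4 and -3.02, -3.18, -3.03 and -3.09 on DTG arrays 1 to 4, and it fell by 0.58 (SE 0.10, adjusted p = 0.00318), likewise without overlap. E2f1, a transcription factor for S phase genes, measured 0.65, 0.75, 0.67 and 0.49 on Control arrays 1 to 4 and 0.079, 0.23, 0.22 and 0.089 on DTG arrays 1 to 4. It fell by 0.49 (SE 0.091, adjusted p = 0.00558), with every DTG array below every Control array. Its relative E2f2 measured 0.31, 0.50, 0.27 and 0.87 on Control arrays 1 to 4 and -0.14, -0.13, 0.15 and 0.44 on DTG arrays 1 to 4. DTG 4 lay among the Control arrays, and the difference of -0.41 (SE 0.18, adjusted p = 0.11) was not called. Ccne1 was called lower on the spike-in scale, at -0.85, and Ccne2, E2f1 and E2f2 were at -0.11, -0.012 and 0.064, not called.

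For 5 members more than 1 probe passed the filter. Both probes of Ccne1, Chaf1b and Uhrf1 were called lower, neither probe of Cdc6 was called, and those of Rfc4 differed in sign. The dimmer probes of Ccne1 and Uhrf1 were not well above background on any DTG array, which leaves a bound for Ccne1 of at least 1.46-fold lower in DTG, taken against the lowest signals well above background. No fold can be given for the dimmer Uhrf1 probe. Over 24 alternative settings, Ccne1, Lig1, Tk1 and Uhrf1 were called lower in all, which includes a setting with 1 DTG array, described below. The spike-in scale, with 2.33% of all genes lower and 30.6% higher, kept 5 members lower (these 4 and Pole) and called 5 higher (Gins1, Mcm3, Orc6, Rpa2 and Rrm2). Without scaling 13 members were lower (9% of all genes) and 1, Rpa2, was higher (12.6% of all genes).

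**Figure D3:**
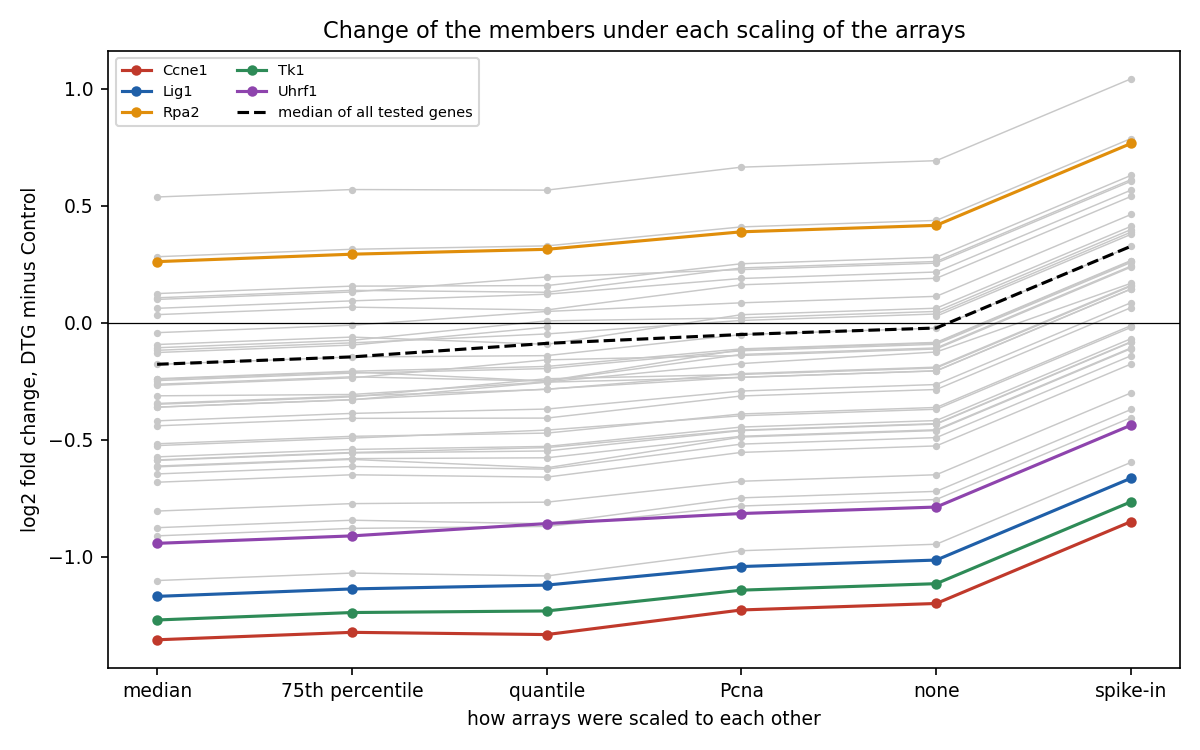
Log2 fold change, DTG minus Control, of each member (lines) under 6 ways of scaling the arrays to each other (horizontal axis), with the median of all genes dashed. Ccne1, Tk1, Lig1 and Uhrf1 lie below 0 at every position, while the median gene runs from below 0 to 0.33 on the spike-in scale.

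The arrays of high Xist (2 Control, 3 DTG) and those of low Xist (2 Control, 1 DTG) were also fitted apart. In the first, 9 of 43 members were lower and 0 higher (8.08% and 6.79% of all genes). The second rests on 1 DTG array that is assumed to vary like the others, and there 4 of 42 were lower and 0 higher (1.86% and 2.28% of all genes). Lig1 was at -1.01 in the high and -1.46 in the low class, Tk1 at -1.16 and -1.53, Ccne1 at -1.0 and -1.86, and Uhrf1 at -0.66 and -1.35. The low class values rest on DTG 2 alone. The difference between the classes was tested as an interaction and 0 of 42 members passed, with 3 (Mcm2, Mcm7 and Uhrf1) at an unadjusted p under 0.05 and a smallest adjusted p of 0.68. Over all 17285 genes that test called 0, with 1111 at an unadjusted p under 0.05. With the Xist class as a covariate 19 members were lower and 0 higher (21.8% and 11.7% of all genes), Mcm6 and Mcm7 no longer among them and E2f2 (-0.50) added. With the slide column as a block 17 were lower and 0 higher (15.8% and 8.7% of all genes).

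**Figure D4:**
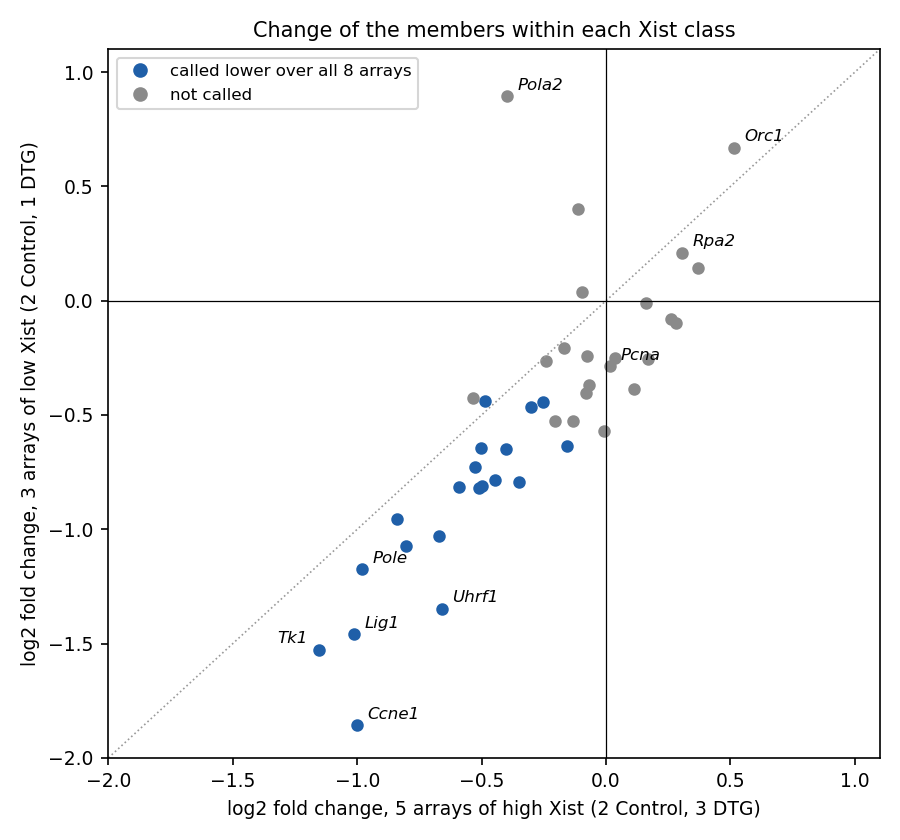
Log2 fold change, DTG minus Control, of the members within the 5 arrays of high Xist (horizontal axis) and the 3 arrays of low Xist (vertical axis); blue points were called lower over all 8 arrays. All blue points lie below 0 on both axes, and Pola2 lies apart with opposite signs.

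Counts of cell type markers called are set beside the 21.3% of all genes called lower and 11.2% called higher. Summed levels leave out spots dropped by outlier flags, and so do not cover the same genes on every array. Basal keratinocyte markers, in whose layer much of the replication takes place, had a summed log2 level of 6.76 to 7.13 on Control and 6.29 to 6.68 on DTG arrays, without overlap, and 4 of 7 fell. Krt15 among them was well above background on 3 of 4 DTG arrays, which can lower the DTG sum. Skeletal muscle markers did not overlap either, at 6.62 to 6.83 and 6.43 to 6.50, with 1 of 6 lower. The summed levels of the other lists overlapped, although single markers in them were called. For the adipocyte and mitotic lists that overlap is not read as a result. A bright marker of each, Adipoq and Mki67, was well above background on only 3 of 4 Control arrays. Of 6 adipocyte markers 5 fell (5.82 to 6.40 against 5.87 to 5.97 for the sum). Taken singly, 5 of the 6 lay lower on every DTG array with a value than on every such Control array (23.2% of all genes). Of 5 suprabasal keratinocyte markers 3 fell and 1, Ivl, rose (5.97 to 6.40 against 5.64 to 6.03). Of 6 leukocyte markers 2 fell, the T cell genes Cd3g and Cd3e (4.02 to 4.84 against 3.84 to 4.58). Of 7 fibroblast markers 2 fell (6.99 to 7.49 against 6.78 to 7.05) and of 10 hair matrix and shaft markers 1 fell (2.77 to 3.28 against 2.32 to 2.80). The shares called lower of fibroblast, skeletal muscle and hair markers, 28.6%, 16.7% and 10%, were near or below that of all genes. Endothelial markers had a median change of 0.086 (1.40 to 2.03 against 1.51 to 2.11). Markers of mitotic cells had a summed level of 3.70 to 4.44 in Control and 3.50 to 3.70 in DTG, and 9 of 10 fell. The exception was Cdk1 at -0.12 (SE 0.11), which was well above background on only 2 of 4 DTG arrays. Taken singly, all 10 lay lower on every DTG array with a value than on every such Control array (23.2% of all genes). The part of these cell types in the fall of the replication genes was not tested. The tested markers of keratinocytes and fibroblasts, the main cells of the labelled tissue, were well above background on at least 3 of 4 arrays of each group.

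A further 105 genes of replication, written out from textbook knowledge, gave the surroundings of the members; 103 were tested, 38 fell, 9 rose and 56 were not called, where 21.3% of all genes were called lower and 11.2% higher. The share that rose is below that of all genes. Their median change was -0.26, against -0.15 over all genes. With spike-in scaling 5 were lower and 23 higher (2.33% and 30.6% of all genes). Of 16 genes listed under licensing and origin firing 5 fell and 3 rose. Ticrr, which helps load Cdc45, fell by 1.52 (SE 0.15), to a dim mean of -4.76 in DTG. The helicase gene Recql4 fell by 0.86 (SE 0.15). Mcm9, well above background on 2 of 4 DTG arrays, fell by 0.71 (SE 0.16). Gmnn, whose product geminin blocks Cdt1, read 0.21, -0.16, 0.22 and 0.0072 on Control arrays 1 to 4 and 0.71, 0.71, 0.60 and 0.52 on DTG arrays 1 to 4. It rose by 0.56 (SE 0.11, adjusted p = 0.00685) without overlap. Gins4 and Orc2 rose by 0.36 and 0.42, but the call of Gins4 was lost without any 1 array other than Control 2 (0.28 to 0.41) and that of Orc2 without any other than Control 3 or DTG 3 (0.32 to 0.47).

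Among 19 further fork subunits 9 fell and 0 rose (21.3% and 11.2% of all genes). Chtf18 and Dscc1, of an alternative loader for the clamp, fell by 1.17 (SE 0.14) and 1.1 (SE 0.14), and Clspn, which links the fork to the checkpoint, by 0.74 (SE 0.13). Of 20 further nucleotide genes 2 fell and 2 rose, which is below the share of all genes called lower and near that called higher. Dctpp1 fell by 0.61, Shmt1 by 0.59 on 1 probe and not on another (-0.24, SE 0.15), and Mthfd2, a folate enzyme of mitochondria, rose by 0.72 (SE 0.11). The rise of Rrm2b (0.34) was lost without Control 2, Control 3, DTG 2 or DTG 4 (0.29 to 0.35), and its dimmer probe read -0.36 (SE 0.28). Of 20 further G1/S genes 8 fell and 2 rose, the share that rose again near that of all genes. The cyclin gene Ccna2 fell by 1.17 (SE 0.17), the retinoblastoma gene Rb1 by 0.70 (SE 0.13) and its relative Rbl1 by 0.79 on 1 probe and not on another (-0.034, SE 0.14). Cdk6, a dim gene with means of -4.93 in Control and -3.93 in DTG, rose by 1.0 (SE 0.22). E2f5 rose by 0.63 (SE 0.21), a call that was kept without Control 4 or DTG 3 and lost without any other array (0.44 to 0.69).

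Of 11 further chromatin genes 5 fell and 1 rose, where 21.3% of all genes were called lower and 11.2% higher. Hells, Nasp and Tonsl, which act on newly made chromatin, fell by 1.14, 0.79 and 0.79. Slbp, whose product binds the stem-loop of histone mRNAs, read -0.89, -1.60, -1.17 and -0.97 on Control arrays 1 to 4 and 0.85, 0.88, 0.23 and 0.077 on DTG arrays 1 to 4. It rose by 1.67 (SE 0.23, adjusted p = 0.00147), with every DTG array far above every Control array, and it was called higher under all 24 alternative settings. Of 17 fork checkpoint and repair genes tested 9 fell and 1 rose. In both lists the share that rose was near or below that of all genes. Fanci, of interstrand crosslink repair, fell by 1.40 (SE 0.12), and the kinase gene Wee1 by 0.90 (SE 0.21). Rad17, which loads the checkpoint clamp, rose by 0.73 (SE 0.12).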

How the data were processed

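Total RNA of 4 Control and 4 DTG skins was amplified and labelled with Cy3, per the labels' protocols, and each sample has 1 array. The deposited scanner tables give the intensity of each spot after the software's background correction, made by the authors with Agilent Feature Extraction. The file headers give its version as 11.5.1.1, whereas the submitters' processing notes give 10.7. The headers name build mm9, and no coordinates from them were used. Accessions of 48.1% of the 55681 non-control probes were matched to RefSeq (GRCm38.p6) for gene names.

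Processed intensities were put on the log2 scale, and the 75th percentile of the non-control probes of an array was subtracted. Spots with an outlier flag were dropped, which left 0.55% of probe values missing, and the remaining spots of each probe were averaged. Probes were kept when well above background on at least 3 of 4 arrays of 1 group, and the brightest kept probe stood for its gene. DTG and Control were compared by the two-sided moderated test of limma 3.58.1 (functions lmFit and eBayes; R 4.3.3; package data.table, 1.17.8), adjusted by Benjamini-Hochberg over 17740 genes. The script was tested on simulated data. The number of arrays limits the precision, and the median SE was 0.14.

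Values on every array were given for up to 5 members of each role with the smallest adjusted p, and, of each list of other replication genes, up to 3 genes called in each direction were named. The members, the lists and the tests were chosen with earlier results of these data known. Alternatives were other scalings, background correction with normexp (offset 50), the authors' deposited value table of linear intensities, filters, probe averages, array weights, the Xist class, the slide column as a block and each array left out; scaling on Pcna was added after the values were seen. Replicate numbers follow deposit order and pair no samples. Unnamed probes were not used here. A gene that the rule for named genes would give is not reported here.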

Additional observations from a re-analysis of the deposited data

Results flagged for a closer look

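In 141 groups of 4 arrays, 1 array was marked when its gap to the nearest other array took up more of the group's whole range than Dixon's critical value allows, which chance meets in about 1 in 20 groups. It was met 3 times. Orc1 measured -3.70 on DTG 3, below -3.41 to -3.38 on the other DTG arrays. Prim2 measured 0.31 on DTG 3, above 0.064 to 0.10 on the others. Pcna measured 2.72 on DTG 2, below 2.87 to 2.90 on the others. None of these genes was called between the groups.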

How the results depend on the processing

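Over 24 alternatives (23 planned and the scaling on Pcna), 17 of the 20 members called lower stayed below 0 in all; the exceptions were Mcm6, Mcm7 and Rfc4 on the spike-in scale. The median of the members relative to all genes lay between -0.25 and -0.14. The count of members called lower was 13 without scaling, 5 on the spike-in scale and 9 on the arrays of high Xist (9%, 2.33% and 8.08% of all genes). The count called higher was 1 with quantile scaling, without scaling and relative to Pcna (12.9%, 12.6% and 12.9% of all genes). It was also 1 with the deposited value table (12.2%) and with genes well above background on all 8 arrays (13.0%). On the spike-in scale it was 5 (30.6%). Of the other replication genes, 19 were called lower without scaling, 5 on the spike-in scale and 11 on the arrays of high Xist, beside the same shares of all genes called lower. On the spike-in scale and the arrays of high Xist 23 and 4 were called higher (30.6% and 6.79% of all genes). With the slide column as a block 5 were called higher (8.7% of all genes). Over all genes the calls numbered 3835 without scaling, 2629 and 715 on the arrays of high and low Xist. Without 1 array at a time, 17 to 20 members were called lower and 0 higher, and 27 to 36 other replication genes lower and 5 to 9 higher. Over all genes 14.4% to 19.5% were then called lower and 8.53% to 11.1% higher, 4079 to 5170 genes in all. The count of 5 other replication genes called higher came without DTG 2 or DTG 4. The slide column as a block pairs 1 Control with 1 DTG array by position on the slide, since the labels carry no replicate numbers to pair by; it called 17 members lower (15.8% of all genes). Signs turned on the spike-in scale for Cdc6 (0.24), Cdt1 (0.26), E2f2 (0.064), Fen1 (0.40), Mcm2 (0.39), Mcm3 (0.46), Mcm4 (0.24), Mcm5 (0.27), Mcm6 (0.16), Mcm7 (0.14), Pcna (0.38), Pold2 (0.026), Pold3 (0.076), Pole2 (0.26), Prim1 (0.16), Prim2 (0.33), Rfc4 (0.086), Rpa1 (0.17), Rrm1 (0.14) and Tyms (0.41). Without scaling they turned for Fen1 (0.048), Mcm2 (0.037), Mcm3 (0.11), Pcna (0.028) and Tyms (0.062). With quantile scaling they turned for Fen1 (0.0077) and Mcm3 (0.048). Relative to Pcna they turned for Fen1 (0.020), Mcm2 (0.0095), Mcm3 (0.085) and Tyms (0.034). On the arrays of high Xist they turned for Fen1 (0.034), Mcm2 (0.11), Mcm3 (0.17), Pcna (0.017), Pola2 (-0.40) and Rfc3 (-0.11). On those of low Xist they turned for Gins1 (-0.079), Orc6 (-0.012), Rrm2 (-0.10) and Tyms (0.037). Mcm3 turned with the deposited value table (0.016) and with the Xist class as a covariate (0.019), Tyms with normexp correction (0.024) and Rrm2b with averaged probes (-0.011). Without 1 array, values crossed 0 for Cdc45 (-0.049 to 0.50), Gins1 (-0.011 to 0.23), Mcm3 (-0.085 to 0.041), Pola2 (-0.22 to 0.40), Rfc3 (-0.080 to 0.30) and Tyms (-0.15 to 0.026). The scalings other than quantile shift each array by 1 number; for the other turns the cause was not tested. The log2 signal of negative controls was 4.27 to 4.69 on DTG arrays and 2.40 to 3.29 on Control arrays, so dim genes were harder to measure on DTG arrays.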
